A study of Mus musculus with 6 samples.

Results

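The genes described here encode 9 proteins of neutrophils and their granules, measured in sorted erythroid cells: Mpo, Prtn3, Ctsg and Ms4a3 of the primary granule stage, Ngp, Ltf and Camp of the secondary granules, and the S100 proteins S100a8 and S100a9. They were taken by symbol from the deposited table, in which each of the 9 stands on a single row among 23094 rows that carry a gene name. RNA sequencing was done on 6 libraries of mouse fetal liver cells of strain C57BL/6 at embryonic day 13.5, sorted by the labels as CD71+Ter119+, that is, positive for the transferrin receptor and for a red cell lineage antigen. The groups are Tfam WT and Tfam KO, with 3 libraries each, numbered 1 to 3. Tfam encodes a factor that packages and transcribes mitochondrial DNA. The labels give no treatment, Cre driver, promoter or allele for the knockout and do not say whether a library came from 1 embryo or a pool, so p-values measure the spread between these libraries, which may be technical.

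Neutrophils arise from progenitors that fill their granules in waves. Primary granules are made first, at the promyelocyte stage, and hold myeloperoxidase and serine proteases. Secondary granules follow at the myelocyte stage and hold lactoferrin and cathelicidin. S100A8 and S100A9, which pair as the calcium-binding complex calprotectin, accumulate in the cytosol of the later stages. Red cell precursors are not a known main source of these transcripts, while the fetal liver also houses granulocyte precursors beside its erythroblasts.

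The erythroid label was checked against its markers. The most abundant of them, Slc4a1, which encodes the anion exchanger band 3, was at 3331 to 4681 RPKM in the 6 libraries, where RPKM is the number of reads scaled to transcript length and to the mapped reads of the library. The Tfam level was 7.22, 8.44 and 5.72 RPKM in WT and 5.92, 7.22 and 6.25 in KO, so the groups overlapped and this gene-level value does not check the labels. WT replicate 3 stands apart, with an RPKM total of 815524, where the others reached 423263 to 535933. Its values were also higher for shorter transcripts. At the length of S100a8 (486 bases in GENCODE vM21) the trend of all tested rows put WT replicate 3 at 1.10 above the row mean on the log2 scale, against 0.03 or less in the other 5 libraries, and at the length of Mpo (2750 bases) at 0.07. For the tested genes of this set, group differences and spread are therefore given also without this library and with the length trend removed. Many other results below that rest on it are given on unadjusted values only. Among these are some ratios between gene classes, the search for similar profiles and the peaks of single comparison genes.

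The primary granule genes came in at a low level with a clear internal order. Mpo, which encodes myeloperoxidase and makes hypochlorous acid in the phagosome, was at 5.20, 5.0 and 4.83 RPKM in WT and 3.68, 6.82 and 2.75 in KO. The WT libraries lay close together, and the KO libraries spanned them on both sides. Prtn3, the serine protease proteinase 3, was at 2.12, 1.60 and 4.09 RPKM in WT and 1.11, 2.3 and 1.19 in KO. WT replicate 3 was the highest and 2 KO libraries were the lowest, but KO replicate 2 lay above 2 WT libraries. Ctsg, which encodes the chymotrypsin-like protease cathepsin G, was at 0.658, 0.377 and 0.887 RPKM in WT and 0.110, 0.529 and 0.60 in KO. Only KO replicate 1 lay below all WT libraries. Ms4a3, a membrane protein of granulocyte and monocyte progenitors and not a granule protein, was at 0.185, 0.248 and 0.520 RPKM in WT and 0.0897, 0.295 and 0.575 in KO, so its highest and its lowest library were both KO. By group means Mpo was followed by Prtn3, Ctsg and Ms4a3 in WT and in KO, and within single libraries this order held in all 6.

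The secondary granule genes varied more from library to library. Camp, the precursor of the antimicrobial cathelicidin peptide, was at 1.25, 1.81 and 12.4 RPKM in WT and 1.25, 5.01 and 4.09 in KO. WT replicate 3 was the highest, and the 2 lowest libraries came 1 from each group. Ngp, neutrophilic granule protein, which has a cathelin-like fold and belongs to the same family, was at 1.86, 1.85 and 6.49 RPKM in WT and 1.67, 4.83 and 2.75 in KO. Its libraries fell in nearly the order of Camp, with WT replicate 3 and KO replicate 2 on top. Ltf, the iron-binding protein lactoferrin, was at 0.734, 0.644 and 1.51 RPKM in WT and 0.684, 1.34 and 0.793 in KO. The same 2 libraries were the highest, within a narrower span of 2.35-fold from lowest to highest library, against 9.95-fold for Camp and 3.87-fold for Ngp.

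S100a8 and S100a9 were the most abundant of the 9 in every library. S100a8 was at 15.3, 17.1 and 83.6 RPKM in WT and 10.8, 28.5 and 25.3 in KO. S100a9 was at 12.2, 11.6 and 58.1 RPKM in WT and 9.84, 25.3 and 17.1 in KO. In both genes WT replicate 3 was the highest library by far, KO replicates 2 and 3 came next, and KO replicate 1 was the lowest. In WT replicate 3 S100a8 exceeded 95.1% of all named rows, and in KO replicate 1 it exceeded 82.5%. The ratio of S100a8 to S100a9 stayed between 1.10 and 1.48 in the 6 libraries, while S100a8 itself spanned 7.76-fold.

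**Figure D1:**
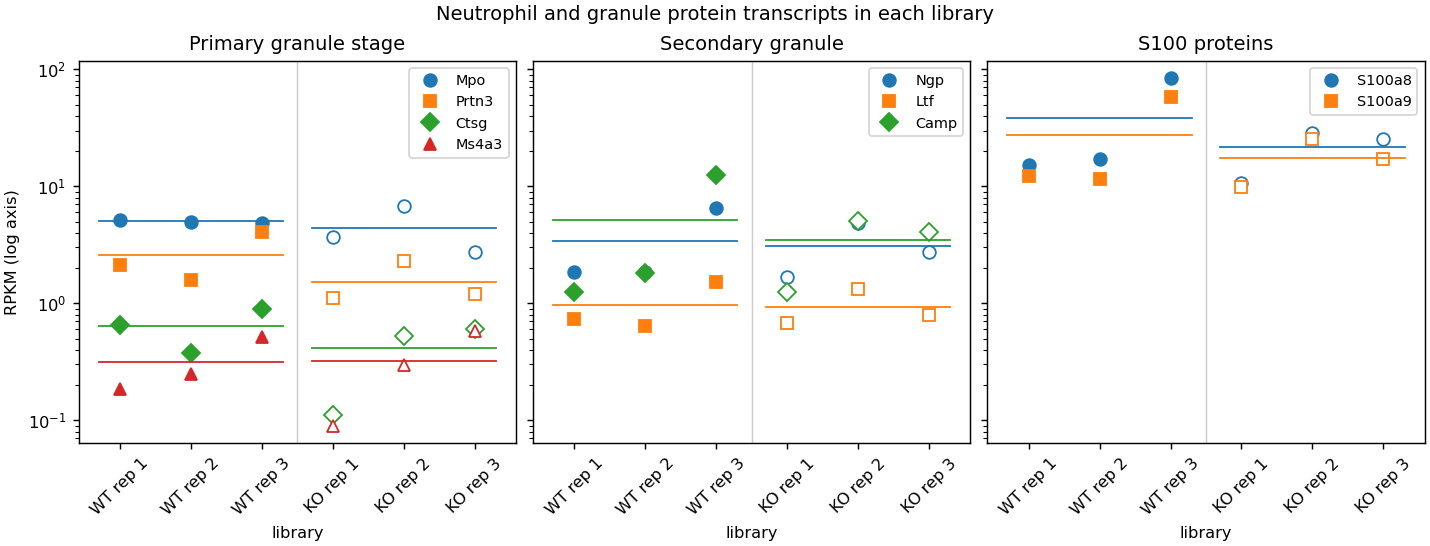
RPKM of the 9 genes in each library, on a log axis, with primary granule stage, secondary granule and S100 genes in separate panels; filled symbols are WT, open symbols KO, and lines are group means (n = 3). S100a8 and S100a9 run from 9.84 to 83.6 RPKM with WT replicate 3 on top, while Mpo stays between 2.75 and 6.82.

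KO and WT did not separate in any of the 9 genes. In 0 of 9 did the groups stand clear of each other, where 4.54% of the 8302 tested rows did. A row was tested with limma on log2(RPKM + 1) if its mean over the 6 libraries was at least 1 RPKM. The 6 genes S100a8, S100a9, Mpo, Prtn3, Ngp and Camp passed this filter, and Ctsg, Ms4a3 and Ltf did not. With limma 0 of the 6 had an adjusted p under 0.05, where 0% of all tested rows did, and 0 of the 6 had an unadjusted p under 0.05, where 1.2% of all rows did. That share is below the 0.05 that p-values would give with no group difference. The lowest adjusted p of all rows in limma was 0.909. The number of rows at an unadjusted p under 0.05 in limma depended on the model. It was 100 here and 324 with the replicate number as a block. With the block and the length trend removed it was 584 of 7927. The absence of calls thus says little.

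The intervals around these differences were wide. S100a8 was at 38.6 ± 38.9 RPKM in WT and 21.5 ± 9.45 in KO (SD, n = 3 each), a log2 difference of KO minus WT of -0.48 (95% interval -2.06 to 1.10, limma adjusted p = 0.909). The interval thus includes a change of more than 1 on the log2 scale in either direction. S100a9 had a log2 difference of -0.31 (-1.79 to 1.17), Camp of -0.10 (-1.75 to 1.56) and Ngp of -0.02 (-1.07 to 1.02). The primary granule genes had narrower intervals, at -0.22 (-0.85 to 0.41) for Mpo and -0.48 (-1.18 to 0.22) for Prtn3, of which Prtn3 had the lowest unadjusted p in limma (0.150). Adjusted p in limma was 0.909 to 0.989 over the 6 genes. By an exact two-sided permutation test of the mean RPKM, whose smallest possible p here is 0.1, p was 0.4 for Ctsg, 1 for Ms4a3 and 0.9 for Ltf, and 0.3 to 0.9 for the other 6.

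All 6 tested genes had a negative fitted difference (median -0.27, against -0.02 for all tested rows), but the sign turned positive for S100a9, Ngp and Camp with the length trend removed and for S100a8, S100a9, Ngp and Camp without WT replicate 3. Without that library, which leaves 2 WT libraries, the log2 difference was 0.29 for S100a8 (-0.55 to 1.13), 0.42 for S100a9 (-0.33 to 1.17), 0.44 for Ngp (-0.24 to 1.13) and 0.71 for Camp (-0.19 to 1.61). Mpo and Prtn3 kept a negative value there, of -0.24 and -0.20. The libraries share replicate numbers, though pair 2 is not borne out by the correlations given below. S100a8, S100a9, Mpo, Prtn3, Ngp, Ctsg and Ltf were lower in KO in pairs 1 and 3 and higher in pair 2. Camp and Ms4a3 were not, with log2 differences of 0.0052, 1.10 and -1.40 for Camp and -0.12, 0.052 and 0.052 for Ms4a3. The share of all rows with these signs was not computed. For S100a8 the log2 difference was -0.47, 0.71 and -1.69 in pairs 1, 2 and 3. No tested gene passed with the replicate number as a block.

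**Figure D2:**
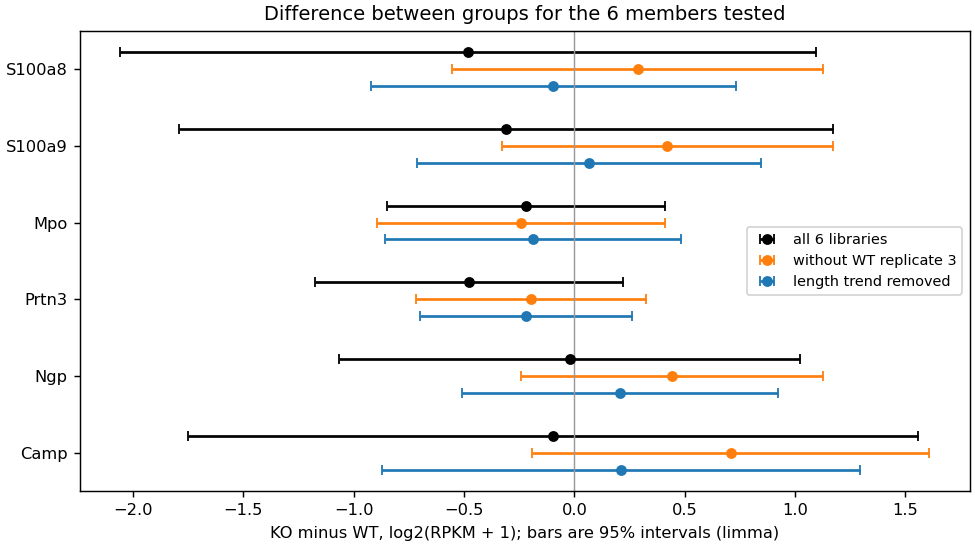
Difference of KO minus WT on the log2(RPKM + 1) scale for the 6 genes tested, with 95% intervals from limma, for all libraries (black), without WT replicate 3 (orange) and with each library's length trend removed (blue). All 18 intervals include 0, and the points of S100a8, S100a9, Ngp and Camp lie on opposite sides of 0 under different settings.

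The later genes spread widely between libraries of 1 group. The within-group SD on the log2 scale was 1.13 for Camp, 1.07 for S100a8, 1.0 for S100a9 and 0.69 for Ngp, larger than in 98.9%, 98.8%, 98.6% and 96.1% of tested rows. For Mpo and Prtn3 it was 0.39 and 0.44, larger than in 73.2% and 80.1%. With the length trend removed the SD was 0.71 for Camp, 0.54 for S100a8, 0.50 for S100a9 and 0.45 for Ngp, larger than in 97.3%, 94.7%, 93.8% and 91.8% of rows. It was then 0.42 for Mpo and 0.27 for Prtn3, larger than in 90.3% and 72.2%. Without WT replicate 3 the shares were 96.7% for Mpo, 90.7% for Prtn3 and 96.9% to 98.2% for the 4 later genes. Length-adjusted S100a8 values on the log2(RPKM + 1) scale were 4.22, 4.51 and 5.30 in WT and 4.02, 5.03 and 4.69 in KO. WT replicate 3 and KO replicate 2 therefore remained the highest of their groups after the length trend was taken out.

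The same pair of libraries led most of the 9 genes. WT replicate 3 was the highest WT library in 8 of 9 genes, as it was in 48.7% of all tested rows. KO replicate 2 was the highest KO library in 7 of 9, as it was in 24.1% of rows. Both held in 6 of 9 genes and in 8.94% of rows. With the length trend removed both held in 4 of the 6 tested genes (S100a8, S100a9, Ngp and Camp) and in 9.85% of rows. This pattern was noted after the values were seen and is a description of these libraries.

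The balance of later to early genes differed between libraries. The summed RPKM of the secondary granule genes was 0.471, 0.596 and 1.98 times that of the primary granule stage genes in WT and 0.725, 1.12 and 1.49 times in KO. The S100 sum was 3.36, 3.97 and 13.7 times the primary sum in WT and 4.14, 5.41 and 8.28 times in KO. In both ratios WT replicate 3 was the highest and KO replicate 3 came next, and the groups overlapped. On the length-adjusted log2 scale Camp minus Mpo was -1.32, -0.86 and 0.40 in WT and -0.72, -0.31 and 0.45 in KO, so replicate 3 of either group stood above the rest there too. The S100 sum relative to the secondary granule sum was steadier, at 7.14, 6.66 and 6.95 in WT and 5.71, 4.81 and 5.56 in KO. Here the groups did not overlap. On the length-adjusted log2 scale the mean of S100a8 and S100a9 minus that of Camp and Ngp was 2.60, 2.53 and 2.47 in WT. In KO it was 2.34, 2.26 and 2.32, without overlap. It rests on the same libraries and genes, without Ltf, and is not a second result. The S100 to secondary ratio was singled out after the values were seen, among 3 ratios between classes and 5 between single genes. No test was made of it, and an exact permutation test could give no p below 0.1 here.

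**Figure D3:**
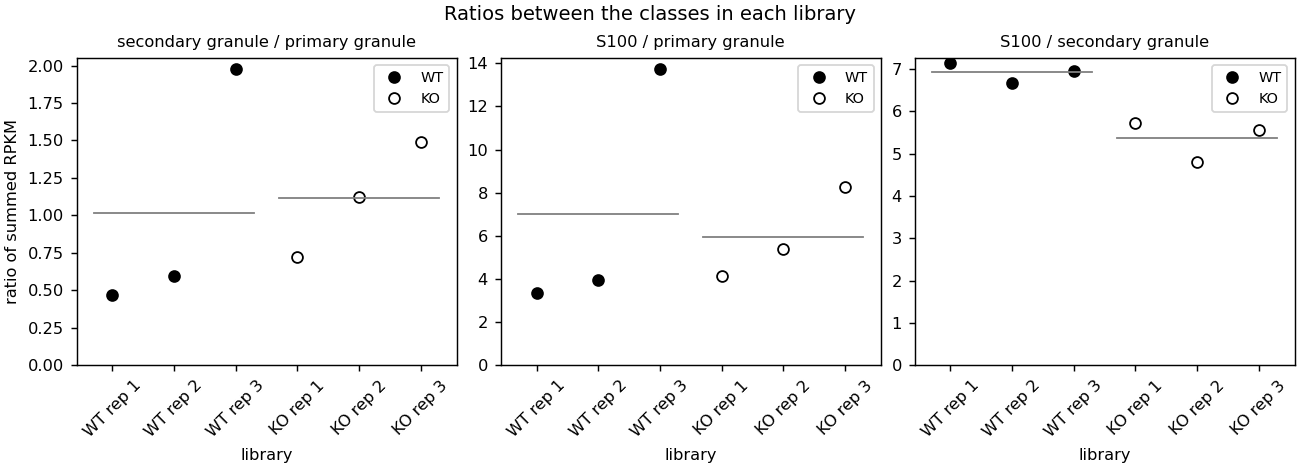
Ratio of summed RPKM between the classes in each library, with filled points for WT, open points for KO and lines for group means (n = 3). The secondary to primary ratio (left) and the S100 to primary ratio (middle) peak in WT replicate 3 at 1.98 and 13.7, and the S100 to secondary ratio (right) is 6.66 to 7.14 in WT and 4.81 to 5.71 in KO.

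Because S100a8, S100a9, Camp and Ngp varied together across libraries and Mpo less so, the 250 bases before the RefSeq start of these 5 genes are shown, from RefSeq on build GRCm38.p6, which is not the build of the deposited table (mm9). All 9 genes had an entry. For S100a8 no GENCODE vM21 transcript was found to begin at the end of the window, as one did for the other 8 genes, so its window may not lie directly before the start used by the deposited table. Capitals mark matches on either strand to TTGCNNAA, a core of sites for the C/EBP factors that drive granulocyte genes, and to GAGGAA, a core of sites for the myeloid factor PU.1.
S100a8, chr3:90668821-90669070, plus strand: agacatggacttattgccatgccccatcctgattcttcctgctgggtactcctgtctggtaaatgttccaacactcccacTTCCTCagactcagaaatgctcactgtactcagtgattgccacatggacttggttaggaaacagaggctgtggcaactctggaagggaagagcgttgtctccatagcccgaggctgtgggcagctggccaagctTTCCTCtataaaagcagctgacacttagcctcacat
S100a9, chr3:90695722-90695971, minus strand: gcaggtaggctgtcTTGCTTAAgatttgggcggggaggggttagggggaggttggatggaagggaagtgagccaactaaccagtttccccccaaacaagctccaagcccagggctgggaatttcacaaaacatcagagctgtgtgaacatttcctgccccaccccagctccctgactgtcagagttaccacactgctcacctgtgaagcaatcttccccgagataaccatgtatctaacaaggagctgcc
Camp, chr9:109849457-109849706, minus strand: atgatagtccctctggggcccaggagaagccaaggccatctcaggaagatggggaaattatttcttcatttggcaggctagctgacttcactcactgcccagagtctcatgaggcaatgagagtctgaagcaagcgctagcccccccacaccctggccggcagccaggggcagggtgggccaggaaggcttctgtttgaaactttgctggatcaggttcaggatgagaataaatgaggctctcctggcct
Ngp, chr9:110419558-110419807, plus strand: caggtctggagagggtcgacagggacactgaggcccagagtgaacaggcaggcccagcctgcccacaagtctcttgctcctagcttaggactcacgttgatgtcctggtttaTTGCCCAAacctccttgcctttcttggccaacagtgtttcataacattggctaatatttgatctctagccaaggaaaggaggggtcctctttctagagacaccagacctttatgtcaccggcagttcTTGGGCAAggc
Mpo, chr11:87793534-87793783, plus strand: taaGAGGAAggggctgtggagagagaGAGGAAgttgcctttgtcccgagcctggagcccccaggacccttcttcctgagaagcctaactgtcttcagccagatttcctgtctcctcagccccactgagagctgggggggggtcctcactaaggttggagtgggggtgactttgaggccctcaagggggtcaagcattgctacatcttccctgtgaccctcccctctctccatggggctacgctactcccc

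Among the 9 windows, TTGCNNAA was found in 3 (S100a9, Ngp and Ltf), where 9.56% of all 32851 promoter windows of this length hold it. GAGGAA was found in 5 (S100a8, Mpo, Prtn3, Ctsg and Ltf), where 23.3% of all windows hold it. S100a8 has 2 such matches and Ngp has 2 of TTGCNNAA, while the Camp window has neither motif. Neither motif was in all 4 windows of S100a8, S100a9, Camp and Ngp. TGTGGT, a core of RUNX sites, was in S100a9 and Ctsg (14% of all windows), AGATAA, a core of GATA sites, in S100a9 and Ltf (9.99%), and AACNGTT, a core of MYB sites, in 0 of 9 (3.8%). No matches of different motifs overlapped in the 9 windows, and a match is a description of the sequence only.

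Other genes of neutrophil maturation were read from lists set for comparison. Of 27 secondary and tertiary granule and late neutrophil genes, 25 were found and 9 tested. With limma 0 of the 9 were called in either direction, and the median log2 difference was -0.16. The most abundant were Stfa1, BC100530 and Stfa3, stefins that inhibit cysteine proteases, and Cyba, a subunit of the phagocyte NADPH oxidase. Stfa1 was at 5.41, 8.04 and 39.9 RPKM in WT and 4.79, 17.6 and 10.9 in KO, and BC100530 at 3.0, 4.21 and 16.5 and at 2.12, 9.61 and 7.23. Both had the library order seen in S100a9 and Camp at the top end, with WT replicate 3 first and KO replicate 2 next. The stefin genes are near-identical copies, so reads could be split between their rows. Of the 9 tested genes of this list, 8 had WT replicate 3 and KO replicate 2 as the highest library of their groups, or 4 with the length trend removed. Other lists held such genes too: 5 of 10 tested macrophage genes (2 with the trend removed), 5 of 9 hepatocyte genes (0), 4 of 8 NADPH oxidase and leukocyte signalling genes (1), 2 of 4 further primary granule genes (2), 2 of 4 other S100 genes (0), 2 of 4 granulocyte transcription factors (1), 1 of 8 megakaryocyte genes (1 of 7) and 0 of 14 erythroid genes (0 of 13). Lcn2, the siderophore-binding lipocalin of secondary granules, was at 0.864, 0.810 and 3.0 RPKM in WT and 0.741, 1.83 and 1.17 in KO (named after its values were seen).

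Of 13 further primary granule and promyelocyte genes 12 were found, 4 were tested and 0 were called, with a median of -0.34. The leading gene Srgn, whose product serglycin packs granule proteases, was at 5.49, 6.40 and 9.57 RPKM in WT and 5.6, 8.62 and 8.74 in KO. Lyz2, the lysozyme of neutrophils and macrophages, was at 4.25, 4.80 and 14.4 and at 3.68, 6.08 and 4.07. Plac8 and Cd63 had means of 2.46 and 1.55 RPKM. Elane, neutrophil elastase, named after its values were seen, was at 0.640, 0.699 and 2.20 in WT and 0.183, 0.884 and 0.766 in KO, below Prtn3 in all 6 libraries. Of 15 other S100 genes, all of them found, 7 were listed at 0 in every library and 4 were tested, with 0 called and a median of 0.10. Their most abundant member S100a13 was at 8.07, 5.23 and 21.7 RPKM in WT and 13.5, 9.32 and 11.1 in KO. It shared the peak in WT replicate 3 but not that in KO replicate 2.

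Of 12 granulocyte transcription factor genes, all found, 4 were tested and 0 called (median 0.13). Cebpb was at 1.57, 1.96 and 4.22 RPKM in WT and 2.98, 4.44 and 2.86 in KO, and Sfpi1, which encodes PU.1, at 2.85, 1.68 and 3.10 and at 2.23, 2.48 and 1.52. Cebpe, the factor needed for secondary granule genes and named after its values were seen, was at 0.0914, 0.0535 and 0.694 RPKM in WT and 0.0276, 0.256 and 0.135 in KO, with WT replicate 3 and KO replicate 2 on top of their groups. Runx1 and Myb had means of 2.60 and 1.04 RPKM. Of 28 neutrophil and myeloid surface receptor genes 27 were found on 26 rows, of which 1, Clec4e, was tested and not called (log2 difference -0.14). Csf3r, the receptor of granulocyte colony-stimulating factor, stood at 0.109 to 0.213 RPKM and the integrin gene Itgam at 0.120 to 0.294, both named after their values were seen. Among NADPH oxidase and leukocyte signalling genes, 8 of 16 were tested and 0 called (median -0.30). Tyrobp, a signalling adaptor of myeloid cells, was at 2.80, 2.76 and 9.52 RPKM in WT and 1.47, 2.93 and 2.82 in KO.

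Rows with the most similar profile over the 6 libraries were sought among 7890 rows of single genes, by the root mean square difference of centred log2 values. For S100a8, whose own spread on that measure was 0.91, they were S100a9 (0.17), Stfa1 (0.20) and Camp (0.20). For Camp they were Stfa1 (0.16), BC100530 (0.19) and S100a8 (0.20). The nearest rows to Mpo were Laptm5 (0.092), Rrp9 (0.097) and Fpgs (0.10), against an own spread of 0.33. Prtn3 came at place 1909 from Mpo, 840 from S100a8 and 1032 from Camp. Ngp came at place 103 from S100a8 (0.43) and 13 from Camp (0.41). The length trend was not removed for these distances. S100a8, S100a9, Stfa1, BC100530 and Camp all have short transcripts, of 486 to 758 bases, against 2750 for Mpo. The part of the length trend in their likeness was not tested. With so few libraries unrelated rows can have similar profiles, and these distances carry no test.

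Genes of other cell types did not all follow the libraries in which the 9 genes were high. In bulk RNA, more cells of a type and more RNA per cell cannot be told apart. Hepatocyte markers (14 of 14 found, 9 tested, 0 called, median -0.05) summed to 46.9 to 96.0 RPKM in WT and 16.8 to 150 in KO, highest in KO replicate 2 and lowest in KO replicate 3. Albumin (Alb) was at 27.2, 17.2 and 9.57 RPKM in WT and 23.1, 39.1 and 4.09 in KO, and alpha-fetoprotein (Afp) at 35.7, 21.7 and 11.6 and at 35.8, 59.1 and 4.72. Megakaryocyte markers (11 of 11 found, 8 tested, 0 called, median -0.0047) summed to 45.2 to 89.3 RPKM in WT and 31.9 to 99.9 in KO. Pf4, platelet factor 4, was at 24.2, 19.7 and 4.67 RPKM in WT and 18.3, 26.8 and 1.17 in KO. WT replicate 3, the top library of S100a8, was among the 2 lowest for Alb and Pf4, and KO replicate 2 was the top library for both. Other genes of these lists differed from Alb and Pf4. Apoa2, an apolipoprotein, was at 5.52, 4.18 and 6.61 RPKM in WT and 6.13, 10.8 and 2.11 in KO, and Gp9, a platelet glycoprotein, peaked in WT replicate 3 at 23.4, against 12.0 to 14.4 in the other 5 libraries. Apoa2 and Gp9 have short transcripts, of 518 and 881 bases, against 2034 for Alb, but Pf4 is short too, at 588. The length trend was not removed from these values, and its part in these differences was not tested.

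Macrophage markers, which mark the central cells of erythroblast islands, were found for 18 of 18 genes, with Cd163 and Vsig4 listed at 0 in all libraries. They summed to 321 to 592 RPKM in WT and 311 to 427 in KO, mostly through Ctsb, a lysosomal protease also made by other cells. Ctsb, Slc40a1 and Hmox1 were left out after their values were seen. The 15 others then summed to 16.3, 15.1 and 22 RPKM in WT and 9.65, 13.8 and 5.52 in KO, with no overlap. Slc40a1 and Hmox1 were the 2 tested macrophage genes with a higher fitted value in KO (log2 difference 0.10 and 0.65). Leaving them out therefore favoured a lower sum in KO. Among tested macrophage genes 8 of 10 had a lower fitted value in KO and 0 were called (median -0.50). C1qb, a complement component, was at 2.98, 2.66 and 6.05 and at 2.08, 2.56 and 1.34, with its peak in WT replicate 3 as in S100a8. The part of macrophage RNA in the levels of the 9 genes was not tested.

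Monocyte markers (10 of 10 found, 1 tested, 0 called) summed to 2.83 to 3.80 RPKM in WT and 1.80 to 3.80 in KO, led by Csf1r, and Ccr2 was at 0.0520 to 0.207. Eosinophil, basophil and mast cell markers (21 of 21 found, 2 tested, 0 called, median -0.07) summed to 6.51 to 11.1 RPKM in WT and 5.64 to 10.2 in KO. Of their 20 rows 5 were listed at 0 in all libraries, and Il1rl1 and Prg2 led with means of 4.07 and 1.87. Stem and progenitor markers (11 of 11 found, 1 tested, 0 called) summed to 7.70 to 11 RPKM in WT and 7.72 to 8.63 in KO, mostly Ly6e. Lymphocyte markers (12 of 12 found, 0 tested) summed to at most 0.790 RPKM in any library. All 14 erythroid markers found of 15 were tested and 0 were called (median -0.01).

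**Figure D4:**
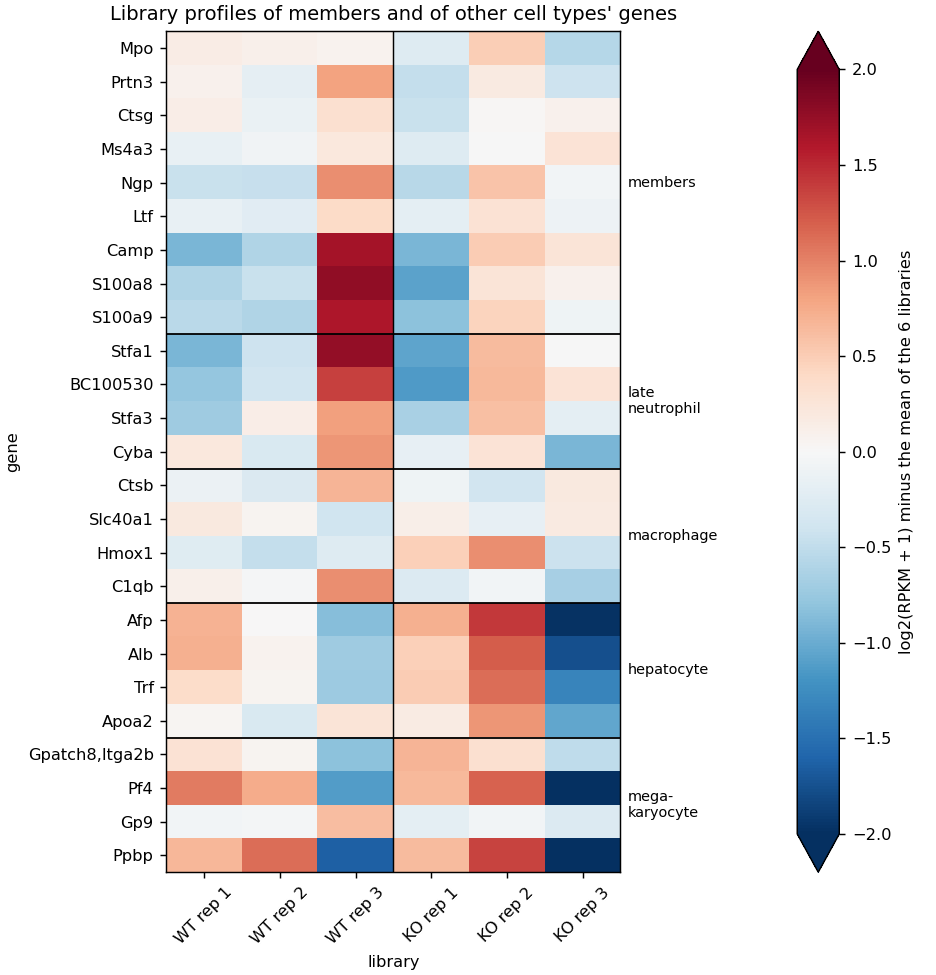
Heat map of log2(RPKM + 1) minus the mean of the 6 libraries for the 9 genes (top) and the 4 most abundant genes of the late neutrophil, macrophage, hepatocyte and megakaryocyte lists, with red above and blue below the mean and colours saturated at 2 and -2. S100a8, S100a9, Camp, Stfa1 and BC100530 are reddest in WT replicate 3, where Afp, Alb, Pf4 and Ppbp are blue and Apoa2 and Gp9 are red. The length trend was not removed.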

How the data were processed

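RNA sequencing values of 6 libraries of sorted fetal liver erythroid cells were used. The authors deposited 1 table of RPKM values, made with TopHat and Cufflinks on build mm9 per the submitters' processing notes. The sources used here name no version, annotation or strand setting. Of 23119 rows, 25 carry a number in place of a name and were left out. In 7231 rows every library is listed at 0, which can be a failed estimate. The table holds no counts, so absolute depth is unknown and no counting interval is given. Steps among values below 0.05 RPKM put WT replicate 1 at 88.9%, KO replicate 2 at 84.1% and KO replicate 3 at 79.6% of the depth of WT replicate 2. KO replicate 1 (34.7% of ratios on steps) and WT replicate 3 (16.7%) were less well or not resolved.

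Rows with a mean of at least 1 RPKM were tested as log2(RPKM + 1), a scale that understates changes of low genes, using limma 3.58.1 (R 4.3.3) and its variance trend. P-values were adjusted over all 8302 rows by Benjamini-Hochberg at 0.05. The test was checked on simulated data. These drew independent noise for each row and library, with no deviation shared across rows like that of WT replicate 3. The check therefore does not cover such a deviation. Single genes were also compared with an exact permutation test. Transcript lengths came from GENCODE vM21 (95.5% of tested rows matched), and a smooth of each library against length gave the length trend. Alternatives were a pseudocount of 0.1, no filter, a mean of at least 5 RPKM, quantile normalization, no variance trend, a replicate block, the length trend removed, each library left out and, for class sums, the share of each library's RPKM total. Combining the length trend with the block, or with WT replicate 3 left out, was added after seeing the data.

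The members and lists were chosen with earlier results of these data known. The text names the 9 members, up to 4 most abundant genes of each list and the 3 rows nearest to 1 gene per class. Other names were chosen after their values were seen. Deviations from group means correlated at 0.46, 0.17 and 0.53 between libraries numbered 1, 2 and 3. Unlike numbers gave -0.51 to 0.40, the highest between WT replicate 2 and KO replicate 1, so pair 2 is not borne out. The numbers were used as pairs only for the pair differences and the block, and the main fit was unpaired. The numbers come from the library titles, which do not say that equal numbers mark a pair. Figures were drawn with matplotlib 3.10.9 in Python 3.11.15.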

Additional observations from a re-analysis of the deposited data

How the results depend on the processing

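With limma 0 of the 9 genes passed under any alternative run. Over all rows 0 passed in the analysis reported (100 at an unadjusted p under 0.05) and 0 with the replicate block (324 unadjusted), and the block changed no call. Without a filter 13 rows passed, with a library left out 0 to 2, and 1 with the length trend removed and WT replicate 3 left out. None of these rows was a member. With the length trend removed the log2 difference turned to 0.066 for S100a9, 0.21 for Ngp and 0.21 for Camp, with the same values under the block. With WT replicate 3 also left out it was 0.22 for S100a8, 0.35 for S100a9, 0.42 for Ngp and 0.66 for Camp. Leaving out 1 library in turn gave -0.90 to 0.29 for S100a8, -0.69 to 0.42 for S100a9, -0.32 to 0.44 for Ngp, -0.58 to 0.71 for Camp, -0.52 to 0.0094 for Mpo, -0.68 to -0.20 for Prtn3, -0.34 to -0.057 for Ctsg, -0.15 to 0.18 for Ltf and -0.14 to 0.12 for Ms4a3. The log2 ratio of KO to WT mean was -0.76 for the S100 sum, -0.35 for the secondary and -0.36 for the primary granule sum, and ranged from -1.13 to 0.47, -0.76 to 0.88 and -0.76 to -0.19 with a library left out. The upper end of the first 2 ranges came without WT replicate 3. As shares of each library's RPKM total these log2 ratios were -0.26, 0.16 and -0.10, so that of the secondary sum turned. With a pseudocount of 0.1 the value of Ctsg was -0.65 in place of -0.22. The cause of these changes was not tested. Ctsg, Ms4a3 and Ltf lie under the filter and had values only without it, or with no test. The absolute number of reads behind each RPKM value is unknown.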

Other observations

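Cxcr2, the chemokine receptor of mature neutrophils, did not share the library profile of the later granule genes: it was at 2.00, 1.76 and 1.56 RPKM in WT and 1.79, 1.62 and 1.41 in KO, with WT replicate 3 the lowest WT library. Fcnb, a ficolin of granulocytes, was at 0.168, 0.358 and 1.10 RPKM in WT and 0.129, 0.745 and 0.411 in KO, the order of Camp at the top end. The matrix metalloproteinases of late granules were near 0, with Mmp8 at 0.0273 to 0.210 and Mmp9 at 0.0540 to 0.148 RPKM. Both had their lowest library in WT replicate 3. Cxcr2, Mmp8 and Mmp9 have long transcripts, of 3046, 2425 and 3175 bases, against 486 to 1222 for S100a8, S100a9, Camp and Ngp. Ltf and Adam8 are long too, at 2743 and 3117 bases, but were highest in WT replicate 3, at 1.51 and 1.86 RPKM. The length trend, which raised short transcripts in WT replicate 3, was not removed from these values. Its part in the contrast was not tested. Cxcr2, Fcnb, Mmp8, Mmp9 and Adam8 were named after their values were seen.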
